A study of Homo sapiens with 8 samples.

Results

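The expression of 9 genes that the tumour suppressor p53 is known to switch on, outside its cell cycle and death programmes, was followed in A2780 cells: DDB2, XPC and POLH in DNA repair, FDXR, TIGAR and GLS2 in metabolism, and RPS27L, TRIAP1 and GDF15 in protein synthesis, survival and secretion. They were taken by name, with earlier results of these data known, and are 9 of 31721 genes in the table. A level filter (a mean of at least 1 FPKM, a unit that scales fragments to exon length and library size) left 12443 genes for testing, among them 8 of the 9, since GLS2 was too low. A2780 is an established human ovarian carcinoma line. Its cells received, for 24 hours, olaparib (a PARP inhibitor), palbociclib (a CDK4 and CDK6 inhibitor), olaparib with palbociclib, or DMSO, the solvent. Each of the 4 groups has 2 libraries of polyadenylated RNA. The labels give no dose and call the libraries biological repeats without saying that they came from separate cultures, so p-values reflect only how far these libraries scatter, and that scatter may be technical.

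The labels describe the line as epithelial. Of 10 epithelial and ovarian markers 8 were in the table and none reached the filter, with EPCAM at 0.159 to 1.07 FPKM and MUC1 at 0.395 to 0.774 FPKM. Of 8 mesenchymal markers 7 reached the filter. VIM, a mesenchymal filament gene, lay at 237 to 350 FPKM and TWIST1 at 149 to 205 FPKM. None of the immune or endothelial markers in the table reached the filter. RNA was bulk, so fewer cells of a type and less RNA per cell cannot be told apart. Whole reads could be recovered from the FPKM for 28635 genes (90.3%), with 18158713 to 30122425 reads per library in them, which is a part of each library. Within each group the pair of libraries varied beyond counting error (chi-square over its degrees of freedom, 2.16 to 3.49). All 9 genes were among the recovered, with 4 to 17 reads for GLS2 and 146 to 5876 for the other 8.

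As background, p53 is a transcription factor that the MDM2 ubiquitin ligase keeps scarce until DNA damage or other stress releases it. It binds a palindromic consensus made of a pair of decamers and raises genes that stop the cell cycle, repair DNA, adjust metabolism or kill the cell. DDB2 and XPC find damaged bases for nucleotide excision repair, and POLH encodes polymerase eta, which copies past ultraviolet lesions. FDXR passes electrons from NADPH to mitochondrial ferredoxins, TIGAR lowers fructose-2,6-bisphosphate and so spares sugar for the pentose phosphate pathway, and GLS2 is a mitochondrial glutaminase. RPS27L is a ribosomal protein close to RPS27, TRIAP1 is a small mitochondrial survival protein that moves lipids with PRELID proteins, and GDF15 is a secreted stress hormone read by the brain stem receptor GFRAL.

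Start site windows of the genes (RefSeq, GRCh38.p14, 250 bases before to 50 after the start, 11 windows for 9 of 9 genes) were searched on both strands for an exact match to the p53 consensus decamer. It was found for 3 of the 9, DDB2, FDXR and RPS27L, and these stretches are shown because they are the places near the starts that carry those letters. The capitals mark the decamers, and each stretch reads 5′ to 3′ on the gene's strand. DDB2 is on the plus strand at chr11:47214974-47215003, FDXR on the minus strand at chr17:74872986-74873045, and RPS27L on the minus strand at chr15:63157517-63157576.
DDB2: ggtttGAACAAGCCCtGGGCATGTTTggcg
FDXR: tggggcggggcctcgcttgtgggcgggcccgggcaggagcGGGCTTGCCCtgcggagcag
RPS27L: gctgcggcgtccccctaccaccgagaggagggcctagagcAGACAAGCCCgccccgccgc
DDB2 has 2 decamers 1 base apart, the arrangement of a full consensus, within 1 of its windows. Of all 35116 windows 2329 (6.63%) held at least 1 exact decamer, and 10 (0.0285%) held 2 within 13 bases. A match is a description of the letters, and the other 6 genes have none in their windows.

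The repair gene DDB2, at 11:47214465-47239240 on the plus strand (GRCh38, GENCODE v29), encodes the subunit that recognises ultraviolet photoproducts in chromatin. It measured 10.5 and 10.1 FPKM with olaparib, 6.40 and 6.31 FPKM with palbociclib, 8.82 and 8.71 FPKM with the combination, and 5.91 and 5.63 FPKM with DMSO. No 2 groups overlapped, and the order was olaparib, combination, palbociclib, DMSO. On the log2(FPKM + 1) scale, which understates changes of low genes, DDB2 rose by 0.74 ± 0.0415 with olaparib (SE, limma, adjusted p = 0.00175) and by 0.53 with the combination (limma, adjusted p = 6.36e-05). Both passed in all 16 alternative settings. With palbociclib alone the rise was 0.12 (limma, adjusted p = 0.0465), and it missed the threshold in 12 of 16 settings, including every one of the 8 that left out a library, where it was 0.09 to 0.15 (limma adjusted p range over settings 0.0114 to 0.23). The combination was below olaparib by −0.21 (limma, adjusted p = 0.0062), which was lost with values rescaled to TPM (−0.15, adjusted p = 0.0577).

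XPC, at 3:14145147-14178783 on the minus strand, encodes the protein that senses the distorted helix before repair begins. Its levels were 11.6 and 10.8 FPKM with olaparib, 9.08 and 9.42 FPKM with palbociclib, 10.9 and 11.6 FPKM with the combination, and 7.85 and 8.10 FPKM with DMSO. Every treated library was above both DMSO libraries, and olaparib and combination libraries overlapped. XPC rose by 0.44 ± 0.0496 with olaparib (SE, limma, adjusted p = 0.00941), by 0.19 with palbociclib (limma, adjusted p = 0.0159) and by 0.45 with the combination (limma, adjusted p = 0.000274). The combination call held in all 16 settings. The olaparib call was lost without DMSO library 1 (0.42), DMSO library 2 (0.46) or olaparib library 2 (0.49), at limma adjusted p of 0.0816, 0.0748 and 0.0516, in a range of 7.65e-06 to 0.0816 over all settings. The palbociclib call was lost without DMSO library 1 (0.17), DMSO library 2 (0.21) or palbociclib library 2 (0.17), in a limma adjusted p range of 0.00461 to 0.0881. XPC shares 318 exon bases on the opposite strand with LSM3, which averaged 23 FPKM. It also shares 1140 with AC093495.1 (0.668 FPKM) and 413 with AC090004.1 (0.774 FPKM), both on the opposite strand. No source used here states whether counting used strand, so reads of XPC and these genes cannot be told apart there.

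POLH, at 6:43576150-43615660 on the plus strand, was higher with olaparib and lower with palbociclib. It measured 11.3 and 11.7 FPKM with olaparib, 6.99 and 6.70 FPKM with palbociclib, 8.34 and 7.86 FPKM with the combination, and 9.80 and 9.58 FPKM with DMSO. The olaparib libraries were above DMSO, and all palbociclib and combination libraries were below it. POLH fell by 0.45 on the log2 scale with palbociclib (SE 0.0443, limma, adjusted p = 0.000264) and by 0.23 with the combination (limma, adjusted p = 0.00349). The palbociclib call held in all 16 settings, and TPM scaling lost the combination call (−0.12, limma adjusted p = 0.119). With olaparib POLH rose by 0.22 (limma, adjusted p = 0.0249). That rise was lost without DMSO library 1 (0.23), DMSO library 2 (0.21), olaparib library 1 (0.24) or olaparib library 2 (0.2), and with no level filter (0.22), in a limma adjusted p range of 0.00604 to 0.14. Against olaparib alone the combination was lower by −0.45 (limma, adjusted p = 0.000356), in all 16 settings.

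**Figure D1:**
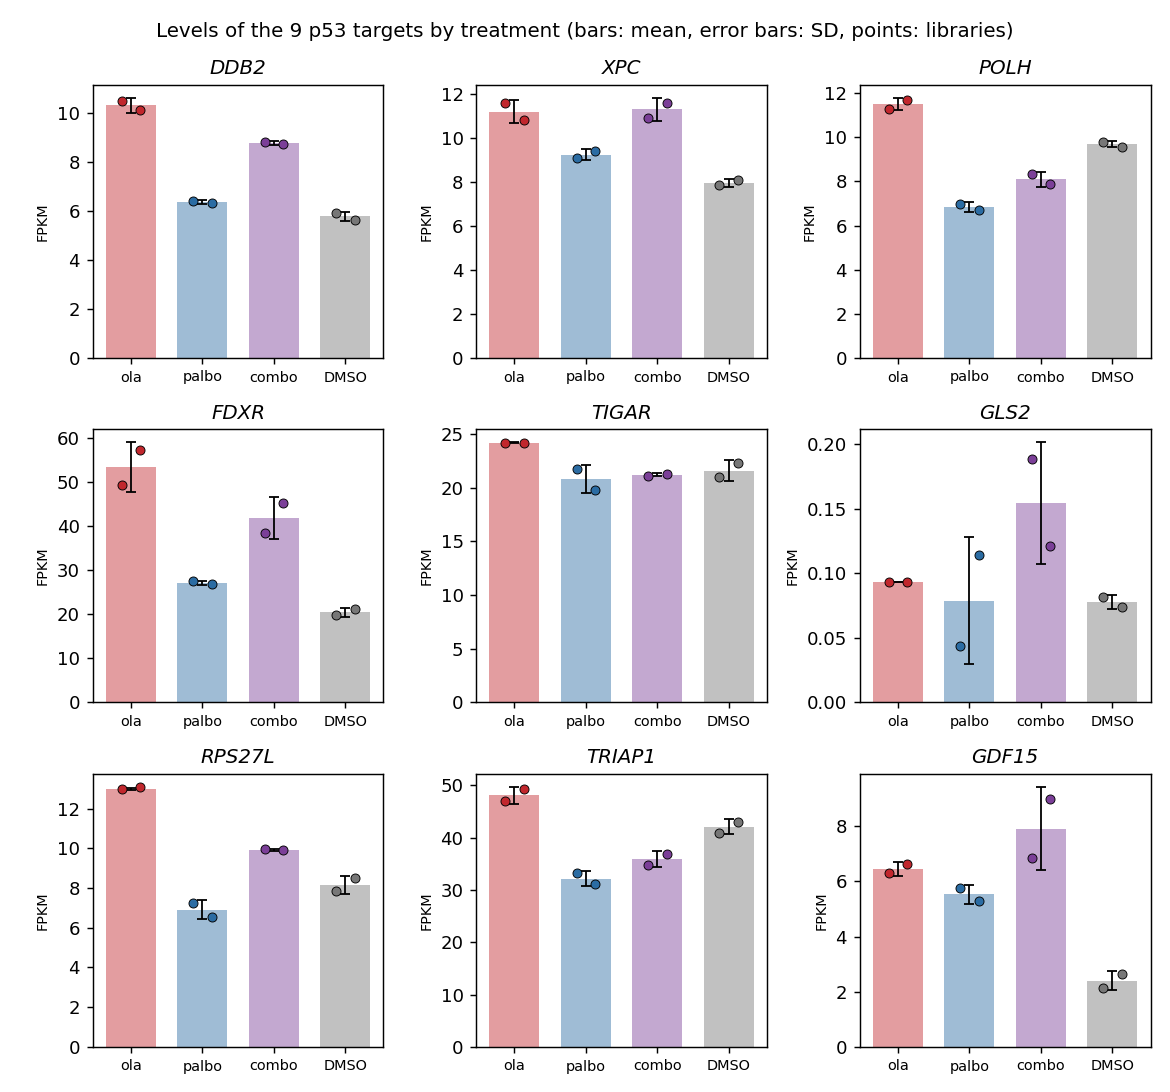
Levels of the genes in FPKM in each library, with points for libraries and bars for group means, ordered olaparib, palbociclib, combination, DMSO. DDB2 and FDXR are highest with olaparib and lowest with DMSO, whereas POLH and TRIAP1 are lowest with palbociclib.

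Among the metabolic genes, FDXR (17:74862497-74873031, minus strand) rose with each treatment. Its levels were 49.3 and 57.2 FPKM with olaparib, 27.4 and 26.8 FPKM with palbociclib, 38.4 and 45.2 FPKM with the combination, and 19.7 and 21.2 FPKM with DMSO. The 4 groups did not overlap, and olaparib was highest. FDXR rose by 1.34 ± 0.0926 with olaparib (SE, limma, adjusted p = 0.00328) and by 1 with the combination (limma, adjusted p = 0.000129), both in all 16 settings. With palbociclib it rose by 0.39 (limma, adjusted p = 0.0112), a call lost without DMSO library 1 (0.34) or palbociclib library 1 (0.38), in a limma adjusted p range of 4.6e-05 to 0.0659. The combination was below olaparib by −0.34 (limma, adjusted p = 0.022). This was lost with no filter, quantile scaling (−0.2), TPM scaling (−0.27), the 2 groups alone, and without olaparib library 2 (−0.24) or combination library 1 (−0.23), in a limma adjusted p range of 0.000136 to 0.11.

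TIGAR (12:4307763-4354593, plus strand) did not pass against DMSO in any treatment on the FPKM as deposited. Its levels were 24.2 and 24.2 FPKM with olaparib, 21.7 and 19.8 FPKM with palbociclib, 21.1 and 21.3 FPKM with the combination, and 21.0 and 22.3 FPKM with DMSO. The olaparib libraries lay above all others, and the other 3 groups overlapped. The log2 differences from DMSO were 0.16, −0.06 and −0.03 for olaparib, palbociclib and the combination (SE 0.0508; limma, adjusted p = 0.0829, 0.375 and 0.69). Quantile scaling and a read-based fit (voom) did call the olaparib difference, at 0.22 and 0.16 (limma, adjusted p = 0.0366 and 0.028), in a range of 0.028 to 0.337. Quantile scaling also called the combination higher than DMSO, with a turn of sign to 0.18 (limma, adjusted p = 0.0136, in a range of 0.0136 to 0.83). The combination was lower than olaparib by −0.18 (limma, adjusted p = 0.0253), a call lost with no filter, with quantile (−0.04) or TPM scaling (−0.11), and without olaparib library 1 (−0.18), olaparib library 2 (−0.18), combination library 1 (−0.17) or combination library 2 (−0.19), in a limma adjusted p range of 0.00665 to 0.518. TIGAR shares 1711 exon bases on its own strand with a neighbouring transcript, AC008012.1, which was not analysed here.

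GLS2 (12:56470944-56488414, minus strand) was near the limit of detection. It measured 0.0929 and 0.0931 FPKM with olaparib, 0.044 and 0.114 FPKM with palbociclib, 0.188 and 0.121 FPKM with the combination, and 0.0817 and 0.0736 FPKM with DMSO. These are 9 and 11, 4 and 15, 17 and 13, and 11 and 9 reads, in the same order of groups. The exact 95% Poisson interval, which covers counting error only, ran from 1.1 to 10.2 for 4 reads and from 9.9 to 27.2 for 17. With no level filter the 6 comparisons gave limma adjusted p of 0.203 to 1, so no difference was detectable at this depth. Most of its exon bases, 3193, also lie within SPRYD4 on the opposite strand, which averaged 1.33 FPKM.

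RPS27L (15:63125872-63158021, minus strand) rose with olaparib and fell with palbociclib. It measured 13 and 13.1 FPKM with olaparib, 7.27 and 6.56 FPKM with palbociclib, 9.95 and 9.90 FPKM with the combination, and 7.83 and 8.49 FPKM with DMSO. Olaparib was highest and palbociclib lowest, with no overlap between any groups. The rise with olaparib was 0.62 ± 0.0557 (SE, limma, adjusted p = 0.00554), and that with the combination 0.26 (limma, adjusted p = 0.0065) in all 16 settings. Without DMSO library 1 (0.57) or olaparib library 2 (0.61) the olaparib call was lost, in a limma adjusted p range of 1.77e-08 to 0.0601. The fall with palbociclib was −0.21 (limma, adjusted p = 0.0174), lost without DMSO library 2 (−0.16) or palbociclib library 2 (−0.15), with no filter (−0.21) and with TPM scaling (−0.13), in a limma adjusted p range of 0.00105 to 0.147. The combination was below olaparib by −0.36 in all 16 settings (limma, adjusted p = 0.00225). Its paralog RPS27, at 1170 to 1440 FPKM, differed by −0.13, −0.21 and −0.03 with olaparib, palbociclib and the combination (limma, adjusted p = 0.309, 0.0656 and 0.771). How the counting treated reads that match both genes is not stated, so the value of RPS27L is uncertain to that extent. The palbociclib difference of RPS27 passed in 6 of the settings tried.

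TRIAP1 (12:120443961-120446412, minus strand) fell with palbociclib. Its levels were 47.0 and 49.3 FPKM with olaparib, 33.2 and 31.1 FPKM with palbociclib, 34.8 and 36.9 FPKM with the combination, and 41.0 and 43.1 FPKM with DMSO. Palbociclib and combination libraries were all below DMSO, and olaparib libraries above it. TRIAP1 fell by 0.38 on the log2 scale with palbociclib (SE 0.0509, limma, adjusted p = 0.000968), in all 16 settings. The fall of 0.23 with the combination (−0.23, limma, adjusted p = 0.00768) was lost with quantile (−0.03) or TPM scaling (−0.09) and without DMSO library 2 (−0.19), in a limma adjusted p range of 0.00184 to 0.452. The olaparib difference of 0.19 missed the threshold (limma, adjusted p = 0.0503) and passed in 5 of 16 settings, in a range of 0.0131 to 0.228. Against olaparib the combination was lower by −0.41 in all 16 settings (limma, adjusted p = 0.000886).

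GDF15 (19:18374731-18389176, plus strand) was the least abundant of the 8 in DMSO. It measured 6.29 and 6.63 FPKM with olaparib, 5.76 and 5.29 FPKM with palbociclib, 6.85 and 8.99 FPKM with the combination, and 2.15 and 2.64 FPKM with DMSO. Every treated library was above both DMSO libraries, and the combination libraries were highest. GDF15 rose by 1.14 ± 0.12 with olaparib (SE, limma, adjusted p = 0.00858), by 0.94 with palbociclib (limma, adjusted p = 0.000736) and by 1.39 with the combination (limma, adjusted p = 9.47e-05). The palbociclib and combination calls held in all 16 settings. The olaparib call was lost without DMSO library 1 (1.03) or olaparib library 2 (1.1), in a limma adjusted p range of 4.2e-07 to 0.0816. The combination differed from olaparib by 0.25 (limma, adjusted p = 0.134), and passed without combination library 1 (0.42) and by voom (0.29), in a range of 0.0203 to 0.59.

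Of the 8 tested genes, 6 rose and 0 fell with olaparib, where 14.6% of all tested genes were called, 4.13% higher and 10.5% lower. The 6 were DDB2, XPC, POLH, FDXR, RPS27L and GDF15. All 8 were above 0, with a median of 0.53 on the log2 scale, against −0.03 over all tested genes, of which 42.1% were above 0. Without 1 library the members called by limma ranged from 2 (without DMSO library 1, or olaparib library 2) to 7, and quantile scaling and voom each called 8. Over all genes, 13 genes were called without DMSO library 1, 28 without DMSO library 2, 268 without olaparib library 1 and 33 without olaparib library 2, against 1821. Of the 1821 calls 28.2% were higher, against 60.2% with quantile and 68.8% with TPM scaling.

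**Figure D2:**
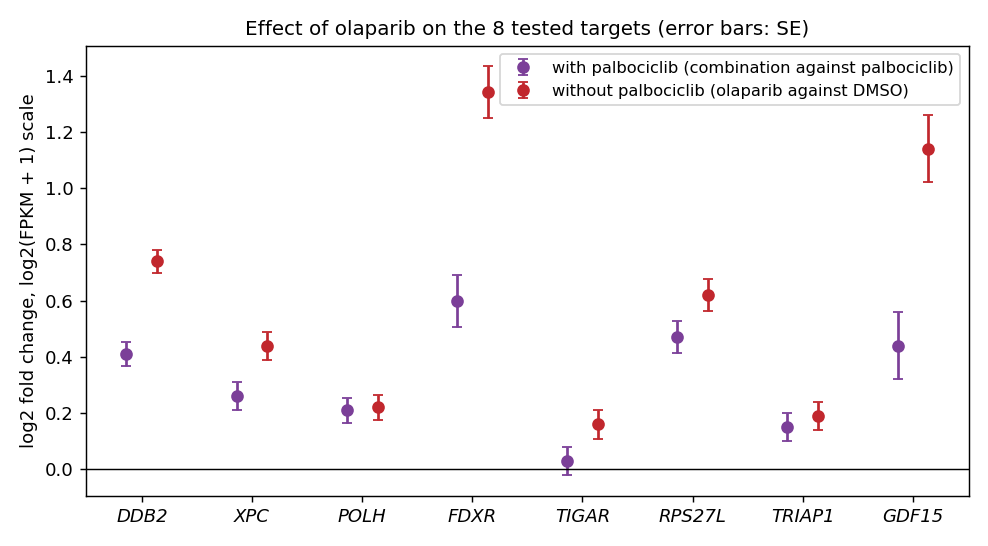
Log2 difference of each gene between olaparib and no olaparib, with palbociclib present drawn left of palbociclib absent and bars for the standard error. FDXR and GDF15 are highest without palbociclib, at 1.34 and 1.14, and POLH and TRIAP1 stay near 0.2.

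With palbociclib alone, calls among the same genes went in both directions. Against DMSO 4 rose (DDB2, XPC, FDXR and GDF15) and 3 fell (POLH, RPS27L and TRIAP1) of 8, where 50.1% of all tested genes were called, 18.7% higher and 31.4% lower. The 3 lower of 8 are near the share called lower over all tested genes. The median was 0.03, against −0.05 over all genes. The calls of DDB2, XPC, FDXR and RPS27L were lost in some settings, as given above. Those of POLH, TRIAP1 and GDF15 held in all 16. Without 1 library 4 to 6 were called, the lowest without DMSO library 1, DMSO library 2 or palbociclib library 2. Of the calls over all genes 37.3% were higher, against 58.6% with TPM scaling. The combination gave 5 higher (DDB2, XPC, FDXR, RPS27L and GDF15) and 2 lower (POLH and TRIAP1), with 56.8% of all genes called, 21.5% higher and 35.3% lower. Here 37.8% of calls over all genes were higher, against 60.3% with TPM scaling, which moved the median of all genes by 0.134. Under it POLH stood at −0.12 and TRIAP1 at −0.09, against −0.23 for each as deposited, and neither was called. Against olaparib, the combination was lower for 6 of 8 (DDB2, POLH, FDXR, TIGAR, RPS27L and TRIAP1) and higher for 0, where 44.4% of all genes were called, 17.0% higher and 27.4% lower. TPM scaling left 3 of these 6. Of the calls over all genes 38.2% were higher, against 56.2% with TPM scaling.

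**Figure D3:**
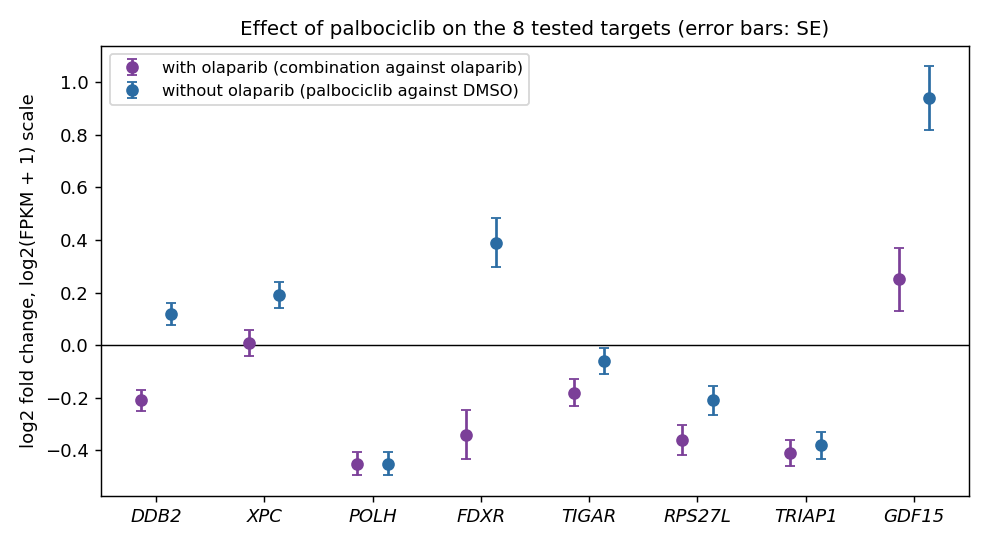
Log2 difference of each gene between palbociclib and no palbociclib, with olaparib present drawn left of olaparib absent and bars for the standard error. DDB2 and FDXR lie above 0 without olaparib, at 0.12 and 0.39, and below it with olaparib, at −0.21 and −0.34.

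All 8 genes had a higher value in the combination than with palbociclib alone, by a median of 0.33 against −0.02 over all genes. Limma called 0 of them, with 0.0241% of all genes called, 0.00804% higher and 0.0161% lower. At an unadjusted p under 0.05 it gave 7 of 8, against 16.6% of all genes. Voom on the recovered reads called 5 of 8 (DDB2, XPC, FDXR, RPS27L and GDF15), against 285 of 11140 genes. FDXR differed by 0.6 (limma, adjusted p = 0.121, in a range of 2.53e-05 to 0.498 over settings) and RPS27L by 0.47 (limma, adjusted p = 0.078, in a range of 2.53e-05 to 0.267). DDB2 differed by 0.41 (limma, adjusted p = 0.0572) and passed with no filter, quantile scaling and voom, in a range of 0.000222 to 0.317.

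The departure from additivity compares the olaparib change in cells that also had palbociclib with the change in cells that did not, as a difference of log2 values (with palbociclib minus without). It lay below 0 for all 8 genes, with a median of −0.17 against 0.02 over all genes, of which 45.4% were below 0. Limma called 0 of 8 and 0.00804% of all genes. At an unadjusted p under 0.05 it gave 4 of 8, against 10.6% of all genes. Voom called 2 of 8 (FDXR and GDF15), against 43 of 11140 genes. FDXR departed by −0.73 ± 0.131 (SE, limma, adjusted p = 0.271), GDF15 by −0.7 ± 0.169 (limma, adjusted p = 0.429) and DDB2 by −0.33 ± 0.0586 (limma, adjusted p = 0.271). Over settings these adjusted p ranged from 0.00026 to 0.709, from 0.0255 to 0.741 and from 0.0626 to 0.709. POLH departed by −0.01 and TRIAP1 by −0.04, with a sign that changed over settings. The departure uses the same 8 libraries as the single comparisons.

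**Figure D4:**
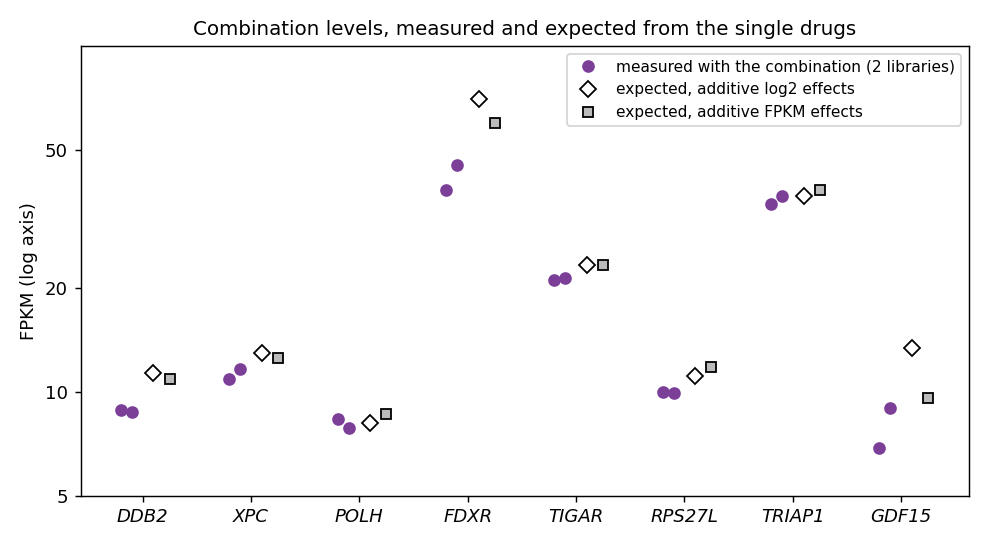
FPKM on a log axis in the 2 combination libraries (circles) and the level expected if the drugs' changes added on the log2 scale (diamonds) or in FPKM (squares). FDXR averaged 41.8 against 70 and 59.9 expected, while POLH averaged 8.1 against 8.13 and 8.6.

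In FPKM, additivity of differences gives other expectations than additivity of ratios. FDXR measured 41.8 in the combination, against 70 for added log2 changes and 59.9 for added FPKM, a linear difference of −18.1 ± 7.45 (propagated SD). DDB2 measured 8.77 against 11.3 and 10.9, a difference of −2.13 ± 0.379. GDF15 measured 7.92 against 13.4 on the log2 scale but 9.59 on the linear one, a difference of −1.67 ± 1.61, near its propagated SD. This SD combines the SDs of the 4 groups, and is larger than the standard error of a difference of group means. RPS27L measured 9.93 against 11.1 and 11.8, or −1.88 ± 0.688. XPC, TIGAR and TRIAP1 measured −1.22 ± 0.792, −2.08 ± 1.64 and −2.36 ± 3.01 from the linear expectation, and POLH −0.503 ± 0.507.

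Over the 8 libraries, which share treatment and scaling, the genes were alike to varying degrees. DDB2 and FDXR had a Pearson r of 0.969 and POLH and TRIAP1 one of 0.977, while GDF15 had −0.189 with POLH and −0.171 with TRIAP1. RPS27L was like both pairs, with 0.896 for DDB2, 0.84 for FDXR, 0.791 for POLH and 0.776 for TRIAP1. TIGAR had 0.633 with DDB2, 0.604 with FDXR, 0.828 with POLH and 0.872 with TRIAP1. These are descriptions over 8 libraries in 4 groups. Among 10167 other protein-coding genes, those most like the mean profile of the 8 were APOBEC3C (r = 0.989), TNFRSF10B, a death receptor gene (0.98), RNF208 (0.976), ISCU (0.976) and BAX (0.974). The closest single genes were CROT for DDB2 (0.992), TTYH2 for XPC (0.969), CELSR2 for POLH (0.984), PLK3 for FDXR (0.995), ZYG11B for TIGAR (0.978), BAX for RPS27L (0.961), AEN for TRIAP1 (0.988) and PHLDB3 for GDF15 (0.988).

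CDKN1A, the p21 inhibitor gene, measured 30.5 and 31.7 FPKM with olaparib, 18.7 and 17.8 FPKM with palbociclib, 24.5 and 28.1 FPKM with the combination, and 12.4 and 12.7 FPKM with DMSO. It rose by 1.24, 0.51 and 1.01 with olaparib, palbociclib and the combination (limma, adjusted p = 0.00175, 0.000716 and 2.88e-05). MDM2 rose with olaparib by 0.39 (limma, adjusted p = 0.0137) and fell with palbociclib (−0.24, limma, adjusted p = 0.0136), and differed by −0.04 with the combination (limma, adjusted p = 0.548). Leaving out any 1 of the 4 olaparib and DMSO libraries lost the olaparib call (0.36 to 0.42), and TPM scaling (−0.17) or leaving out DMSO library 1 (−0.23), DMSO library 2 (−0.24) or palbociclib library 2 (−0.19) lost the palbociclib call. PPM1D, a phosphatase that turns p53 off, rose by 0.36, 0.26 and 0.36 with olaparib, palbociclib and the combination (limma, adjusted p = 0.0117, 0.00383 and 0.000701). Its olaparib call was lost without DMSO library 1 (0.33), DMSO library 2 (0.4), olaparib library 1 (0.32) or olaparib library 2 (0.41).

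Of 28 other p53 targets 23 were tested. With medians of 0.51, 0.16 and 0.51 for olaparib, palbociclib and the combination, against −0.03, −0.05 and −0.06 over all tested genes, 21 rose and 0 fell with olaparib, 11 rose and 2 fell with palbociclib, and 20 rose and 2 fell with the combination. Without 1 library the olaparib count fell to 4 (without DMSO library 1), the palbociclib count to 8 and the combination count to 16. The combination against palbociclib had 0 of the 23 called by limma and 18 higher at an unadjusted p under 0.05. Quantile scaling called 4 higher and voom 11. Over all tested genes 16.6% had an unadjusted p under 0.05, quantile scaling called 17 and voom 285 of 11140. In the departure limma called 0, with 12 below 0 at an unadjusted p under 0.05, and voom called 5, all below 0. Over all genes the departure had 10.6% at an unadjusted p under 0.05, and voom called 43. With olaparib PHLDA3, an AKT inhibitor gene, rose by 1.32 (limma, adjusted p = 0.00435) and BTG2, an antiproliferative gene, by 1.15 (limma, adjusted p = 0.00175). With palbociclib SESN2, a stress gene that restrains mTORC1, rose by 1.36 (limma, adjusted p = 2.61e-05). BAX, a death effector gene whose pattern was most like that of RPS27L, rose with olaparib by 0.51 (limma, adjusted p = 0.00894), a call lost without DMSO library 1 (0.49), DMSO library 2 (0.53) or olaparib library 2 (0.44).

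Of all tested genes, olaparib had 4.13% higher and 10.5% lower, palbociclib 18.7% higher and 31.4% lower, and the combination 21.5% higher and 35.3% lower; the counts of the pathway lists stand against them. Around the repair genes, 0 of 21 nucleotide excision repair genes rose and 3 fell with olaparib, 3 rose and 9 fell with palbociclib, and 5 rose and 11 fell with the combination, with medians of −0.08, −0.11 and −0.15. The balance depended on the scaling. With quantile scaling 5 rose and 5 fell with palbociclib, and 6 rose and 6 fell with the combination. With TPM scaling, where 23 were tested, palbociclib gave 6 higher and 5 lower, and the combination 7 higher and 6 lower. RAD23B, the partner of XPC, fell with palbociclib (−0.51, limma, adjusted p = 6.08e-05) and with the combination (−0.61, limma, adjusted p = 1.89e-05). Of 15 translesion synthesis genes, 0 rose and 3 fell with olaparib, 0 rose and 9 fell with palbociclib, and 1 rose and 8 fell with the combination, with medians of −0.08, −0.31 and −0.2. With TPM scaling and 16 tested, 2 rose and 8 fell with palbociclib, and 3 rose and 7 fell with the combination. PCNA, the clamp that recruits polymerase eta, measured 215 and 215 FPKM with olaparib, 115 and 113 FPKM with palbociclib, 112 and 114 FPKM with the combination, and 197 and 202 FPKM with DMSO. It fell with palbociclib (−0.8, limma, adjusted p = 2.61e-05). Under quantile or TPM scaling 0 genes of either list were called lower with olaparib. Each called 1 translesion synthesis gene higher, PCNA, at 0.23 and 0.17 (limma, adjusted p = 0.0172 and 0.0292). As deposited, PCNA differed by 0.11 with olaparib (limma, adjusted p = 0.0697). Without DMSO library 2, 5 excision repair genes were called lower with palbociclib.

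Around the metabolic genes, 13 ferredoxin and iron-sulphur genes gave 1 higher and 4 lower with olaparib, 1 higher and 8 lower with palbociclib, and 2 higher and 11 lower with the combination, with medians of −0.13, −0.21 and −0.35. With TPM scaling these were 1 higher and 1 lower with olaparib, 1 higher and 3 lower with palbociclib, and 2 higher and 7 lower with the combination. ISCU, the cluster scaffold, rose with olaparib by 0.44 (SE 0.0561, limma, adjusted p = 0.0114), a call lost without DMSO library 1 (0.36) or olaparib library 2 (0.42), and FDX1, a ferredoxin that FDXR reduces, fell (−0.34, limma, adjusted p = 0.0197). The FDX1 call was lost without DMSO library 1 (−0.33), DMSO library 2 (−0.35), olaparib library 1 (−0.3) or olaparib library 2 (−0.38), with no filter and with TPM scaling (−0.29). Without DMSO library 1, 4 genes of this list were called lower with palbociclib. Of 13 fructose-bisphosphate and pentose phosphate genes, 2 rose and 2 fell with olaparib, 3 rose and 6 fell with palbociclib, and 2 rose and 7 fell with the combination, with medians of −0.06, −0.14 and −0.27. The combination gave 5 higher and 6 lower with quantile scaling, and 6 higher and 7 lower of 14 with TPM. Of 10 glutamine and glutathione genes, 0 rose and 3 fell with olaparib, 2 rose and 4 fell with palbociclib, and 1 rose and 6 fell with the combination, with medians of −0.17, −0.15 and −0.25. With olaparib quantile scaling left 1 higher and 1 lower, and TPM scaling 0 of either; the combination gave 2 higher and 5 lower, and 2 higher and 4 lower of 11. Of 8 genes on a list of PRELID lipid carriers, the apoptosome genes APAF1, CASP9 and CYCS, and RPS27, 0 rose and 2 fell with olaparib, 1 rose and 3 fell with palbociclib, and 1 rose and 4 fell with the combination, with medians of −0.03, −0.18 and −0.2. Under quantile or TPM scaling 0 of these 8 were called lower with olaparib.

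Of the stress factors and the receptor listed around GDF15, 6 were tested: 0 rose and 1 fell with olaparib, 2 rose and 2 fell with palbociclib, and 2 rose and 3 fell with the combination, with medians of −0.16, 0.01 and −0.09. ATF4, a stress factor, fell with olaparib (−0.32, limma, adjusted p = 0.0131), and EGR1, an immediate early factor, rose with palbociclib by 2.16 (limma, adjusted p = 6.07e-05). Without DMSO library 1 (−0.29), DMSO library 2 (−0.35), olaparib library 1 (−0.27) or olaparib library 2 (−0.38) the ATF4 call was lost. Without DMSO library 1 limma called 0 genes of the repair, metabolic, TRIAP1 and GDF15 lists with olaparib. In the combination against palbociclib limma called 0 genes of these 7 lists, with 0 to 1 higher and 1 to 7 lower per list at an unadjusted p under 0.05. Voom called 1 iron-sulphur gene higher and 1 glutamine or glutathione gene and 1 gene of the GDF15 list lower. In the departure limma called 0, with 0 to 1 above and 0 to 3 below 0 per list at an unadjusted p under 0.05, and voom called 1 gene of the fructose-bisphosphate list, below 0.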

How the data were processed

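The authors deposited 1 table of FPKM values, 1 column per library, for 8 libraries. Per the submitters' processing notes, CASAVA 1.8, STAR 2.5.1b and HTSeq 0.6.0 were named, with GRCh38 and hg38, without a role. No source used here states the strand setting. Columns were matched to groups by their titles, and 0 per-sample columns were unused.

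Values were tested as log2(FPKM + 1) with limma 3.58.1 (R 4.3.3) in a single fit of all 8 libraries by group, with empirical Bayes and an expression trend, on 4 residual and 3.01 prior degrees of freedom. The level filter (mean of 1 FPKM or more) kept 12443 genes and dropped 19278. P-values are two-sided and adjusted by Benjamini-Hochberg over all tested genes within a comparison, with a threshold of 0.05. An exact permutation test of 2 against 2 cannot go below 0.333. Recovered whole reads (28635 genes within 0.01 reads, using GENCODE v29 exon lengths) went into a voom fit of 11140 genes as an alternative. Intervals on reads cover counting error only. GENCODE v29 supplied names and positions. Promoter sequences came from RefSeq.

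The named genes are the 9, the p53 regulators, up to 3 with the largest change per list, and those most like the mean profile. The members and lists were chosen with earlier results of these data known. Tests were checked on simulated data. Some genes of the lists are not reported here by name.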

Additional observations from a re-analysis of the deposited data

Results flagged for a closer look

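In 4 of the genes given with values, both palbociclib libraries were above both DMSO libraries, while both combination libraries were below both olaparib libraries, so the palbociclib difference had opposite signs with and without olaparib. In the combination against olaparib CDKN1A was lower by −0.23 (limma, adjusted p = 0.0224). Quantile (−0.09) or TPM scaling (−0.16), no filter and other settings lost that call. With palbociclib PHLDA3 rose by 0.3 (limma, adjusted p = 0.0483), a call lost with no filter, without a trend and in other settings. The rise of DDB2 with palbociclib passed in only 4 of 16 settings. For FDXR, the call of combination below olaparib was lost with quantile (−0.2) or TPM scaling (−0.27) and in other settings. FDXR departed from additivity by −0.73, DDB2 by −0.33, CDKN1A by −0.74 and PHLDA3 by −0.75 on the log2 scale. The 4 were picked by the opposite signs in these libraries, which fixes a departure below 0. Their departures and the p-values below are therefore no separate support for the pattern. The limma interaction test did not pass for any of the 4 (adjusted p = 0.271, 0.271, 0.159 and 0.316). With voom on the recovered reads FDXR (adjusted p = 0.00026, in a range of 0.00026 to 0.709 over settings), CDKN1A (5.15e-05) and PHLDA3 (0.00121) passed, and DDB2 passed in no setting (0.0626 to 0.709). Among all listed genes that were tested, 6 of 119 other than the 8 members had such opposite signs. Besides CDKN1A and PHLDA3 they were SESN1, PLK3, ACER2 and PFKL, which are named here after their values were seen. All but PFKL come from the 23 other p53 targets tested. How many of all tested genes share this pattern was not counted. With 2 libraries per group, how often it arises by chance was therefore not tested.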

How the results depend on the processing

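Olaparib against DMSO called 601 genes with no filter, 1000 with quantile scaling, 1010 with TPM and 2915 with voom, against 1821, and 13 to 1956 without 1 library, with 2 to 7 of the 8 genes called without 1 library and 8 with quantile scaling or voom, against 6. Palbociclib calls without 1 library ranged from 4443 to 6345 genes and 4 to 6 of the 8. The combination against olaparib called 3 of the 8 under TPM, against 6. The combination against palbociclib called 23 genes with no filter, 17 with quantile scaling, 0 without a trend, 285 with voom and 0 to 2 without 1 library, against 3, and 1, 3 and 5 of the 8 with no filter, quantile scaling and voom, against 0. The departure called 33 genes with no filter, 0 without a trend, 43 with voom and 0 to 2 without 1 library, against 1, and 2 of the 8 with voom. The cause was not tested.

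TIGAR changed sign with palbociclib (−0.06) under quantile scaling (0.09), TPM (0.04) and without palbociclib library 2 (−0.12 to 0 without 1 library), with the combination (−0.03) under quantile scaling (0.18, then called), TPM (0.11) and without DMSO library 2 (0.02; −0.07 to 0.02 without 1 library), and against palbociclib (0.03) without palbociclib library 2 (−0.03). XPC in the combination against olaparib (0.01) became −0.04 without olaparib library 2 or combination library 2, in −0.04 to 0.05 without 1 library. POLH's departure (−0.01) became 0 with a pseudocount of 0.1 and with voom, and 0.01, 0.02, 0.02 and 0.03 without DMSO library 2, olaparib library 2, palbociclib library 1 and combination library 2 (−0.04 to 0.03 without 1 library), and TRIAP1's (−0.04) lay at −0.08 to 0.01. Depth limits GLS2, with 4 to 17 reads per library.

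With the replicate number as a block, olaparib called 2112 genes, palbociclib 6394, the combination 7235, the combination against olaparib 5696 and against palbociclib 3, and the departure 0. It called 6, 7, 7, 6, 0 and 0 of the 8. Same-numbered libraries had deviation correlations of −0.047 to 0.034, so they shared little deviation over genes. With 2 libraries a group this does not settle whether the samples are paired, and the labels state no pairing.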
